A study of Homo sapiens with 8 samples.

Results

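The genes described here are 38 transcriptional targets of the tumour suppressor p53 that act mostly outside the core of cell death: in arrest, DNA repair, metabolism, RNA control and signalling. They were chosen by gene symbol, and where a gene had several probe sets the brightest over all arrays stood for it. A named probe set was found for 24 of the 38, among 14884 genes named on the array, and these 24 are called measured. CDKN1A, MDM2, PHLDA3, FDXR, ZMAT3, XPC, DDB2, BTG2, POLH, PPM1D, ABCA12, BLOC1S2, ANKRA2 and PERP had none and were not analysed here. The whole DNA repair arm (XPC, DDB2 and POLH) and the best known arrest and feedback genes, CDKN1A and MDM2, therefore have no value.

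The study compared cells of MOLM-14, an acute myeloid leukaemia line long kept in culture, carrying a short hairpin RNA against ENTPD1 (shCD39, 4 arrays) with MOLM-14 cells carrying a scrambled hairpin (shCTRL, 4 arrays). ENTPD1 encodes CD39, a cell-surface enzyme that degrades extracellular ATP and ADP. Both groups received doxycycline for 72 h. The labels name the 4 arrays of each group technical replicates, and the protocol speaks of clones without giving their number, so p-values here measure only the spread between arrays.

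p53 is a transcription factor that is held low by the ubiquitin ligase MDM2 and stabilised by DNA damage, nucleolar stress, nutrient stress and other insults. It binds response elements built from a pair of decamers and raises genes that stop the cell cycle, repair DNA, limit mTORC1 signalling, lower glycolysis and oxidant stress, and feed back on p53 itself. Several of its targets have other inputs as well: SESN2 and GDF15 are also transcribed under the stress factor ATF4, and SESN1 and SESN3 under FOXO factors.

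Some facts of the whole series bear on the values below. ENTPD1, the target of the hairpin, read 2.42, 2.14, 2.72 and 2.95 in shCD39 arrays 1 to 4 (log2), against 3.16, 2.88, 3.21 and 4.12 in shCTRL arrays 1 to 4. The groups overlapped, and at -0.79 (log2 fold change, SE 0.25) the gene missed the threshold (limma adjusted p = 0.178). Its means, 2.56 in shCD39 and 3.34 in shCTRL, lay near the array medians of 3.13 to 3.17. At so dim a level these values say little about the size of the knock-down. Over all probe sets, shCD39 array 4 had a mean correlation of 0.979 with its own group and 0.984 with the shCTRL arrays. It thus stood nearer to the controls, and results are given with and without it where it changes them. Of 14 markers of the myeloid line 9 were measured, with levels from 2.47 ± 0.25 in shCD39 and 2.38 ± 0.13 in shCTRL for CD14 to 10.04 ± 0.58 in shCD39 and 8.98 ± 0.18 in shCTRL for LYZ (log2, SD, n = 4 arrays each). Their changes ran from -0.40 (MPO) to 1.36 (CSF1R), with 0 calls by limma and 2 at an unadjusted p under 0.05, CSF1R and LYZ. Markers of other cell types had medians of change between -0.11 (B cells) and 0.21 (fibroblast and epithelial), with 0 of 16 measured markers past the threshold by limma and 2 at an unadjusted p under 0.05, NKG7 and PAX5. At that unadjusted level 6.54% of all genes were higher and 8.13% lower. The array gives no detection call, so whether any of these markers is absent was not tested.

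Of the 24 measured p53 targets, 3 rose in shCD39 and 0 fell: TP53INP1, PURPL and SESN1 (limma, Benjamini-Hochberg adjusted p under 0.05 over all genes). In the background of all 14884 genes 0.047% passed higher and 0.047% lower. At an unadjusted p under 0.05, 14 of the 24 were higher and 1 was lower, against 6.54% and 8.13% of all genes. The shCD39 and shCTRL values did not overlap in 9 members that were higher and in 1 that was lower, SESN2, where 3.61% and 4.23% of all genes did so. The median log2 fold change (shCD39 minus shCTRL) was 0.41 over the 24 and 0.01 over all genes, and 17 of 24 had a higher mean, against 52% of all genes. The list was drawn up with earlier results of these data known, so these counts describe it. Since the arrays hold bulk RNA, a change in the share of cells and a change in RNA per cell cannot be told apart.

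**Figure D1:**
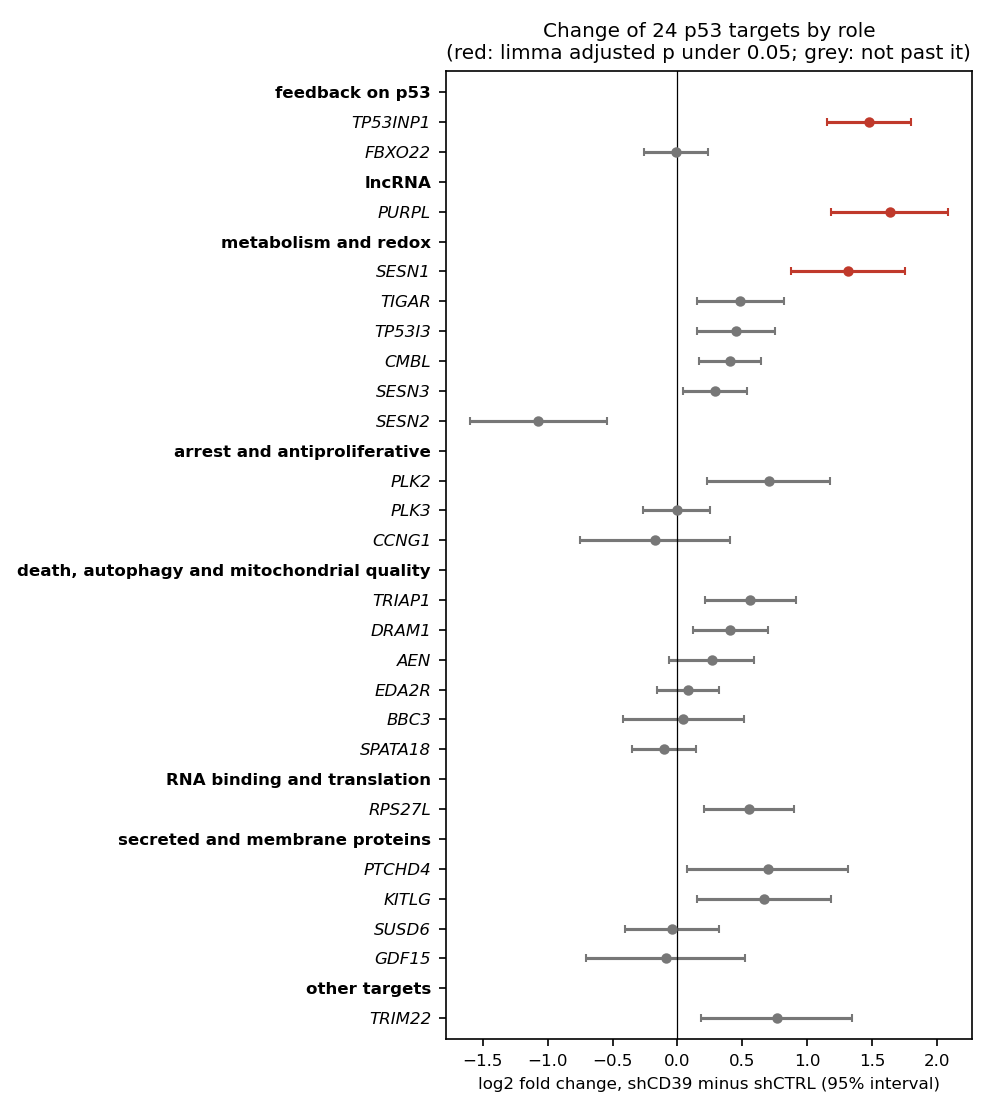
Log2 fold change of each measured p53 target (shCD39 minus shCTRL, horizontal axis) with its 95% interval from limma, grouped by role down the page. TP53INP1, PURPL and SESN1, in red, passed the threshold at 1.48, 1.63 and 1.31, and SESN2 stood on the other side at -1.07.

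Among genes that feed back on p53, TP53INP1 rose and FBXO22 did not pass. TP53INP1 encodes a nuclear protein that promotes p53 phosphorylation and also takes part in autophagy. TP53INP1 read 5.75, 5.90, 6.02 and 5.48 in shCD39 arrays 1 to 4, against 4.19, 4.07, 4.41 and 4.56 in shCTRL arrays 1 to 4. Every shCD39 array lay well above the highest control. The means were 5.79 ± 0.24 in shCD39 and 4.31 ± 0.22 in shCTRL, a 2.78-fold increase (log2 1.48, SE 0.15, limma adjusted p = 0.00716). It was the third largest log2 rise among the 14884 named genes. FBXO22, the substrate-binding subunit of a ubiquitin ligase, averaged 7.15 ± 0.11 in shCD39 and 7.16 ± 0.15 in shCTRL. Its 95% interval of the log2 fold change ran from -0.26 to 0.24, and a dimmer probe set of the same gene gave 0.10. MDM2 and PPM1D, the other feedback genes of the list, were not measured.

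The long non-coding RNA PURPL had the largest log2 rise of all 14884 genes. PURPL is induced by p53 and is known to restrain basal p53 levels. PURPL read 6.61, 6.42, 6.94 and 5.99 in shCD39 arrays 1 to 4, against 4.99, 4.37, 5.07 and 5.00 in shCTRL arrays 1 to 4. All shCD39 arrays were above all controls, with array 4 the lowest of its group and shCTRL array 2 below the other controls. Means of 6.49 ± 0.40 in shCD39 and 4.86 ± 0.33 in shCTRL gave a 3.10-fold increase (log2 1.63, SE 0.21, limma adjusted p = 0.0193). The promoter window of PURPL is shown because it holds a full p53 element. It spans 250 bases before to 50 bases after the RefSeq start, at chr5:27472042-27472341 (GRCh38.p14, plus strand), with each match to the p53 decamer consensus in capitals.
PURPL: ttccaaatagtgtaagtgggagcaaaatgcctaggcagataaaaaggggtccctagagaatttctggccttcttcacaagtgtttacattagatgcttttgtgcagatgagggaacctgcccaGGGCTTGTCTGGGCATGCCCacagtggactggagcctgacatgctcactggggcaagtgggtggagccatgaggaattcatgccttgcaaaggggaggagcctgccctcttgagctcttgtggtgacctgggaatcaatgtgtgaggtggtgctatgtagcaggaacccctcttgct
The decamers GGGCTTGTCT and GGGCATGCCC follow each other without a gap from 127 bases before the start.

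A p53 decamer, read as 3 purines, C, 2 bases of A or T, G and 3 pyrimidines, which matches both strands alike, occurred in 2329 of 35116 RefSeq promoter windows, or 6.63%. Windows were available for 33 of the 38 genes. TP53INP1, CMBL, FBXO22, TRIM22 and PHLDA3 had none and were not scanned. Of the 48 windows of the 33 genes, 9 (18.8%) held a decamer. Those of the measured PURPL, SESN1, PTCHD4, RPS27L, PLK2 and AEN did, and so did those of ABCA12, DDB2 and FDXR, which have no value here. A pair of decamers with at most 13 bases between them was found in 10 of all 35116 windows (0.0285%), 3 of them at PURPL, PTCHD4 and DDB2. Since these genes are listed as p53 targets partly because such sites are known, the counts describe the list and do not test it. The FOXO motif GTAAACA, searched on both strands, was in windows of PURPL, GDF15 and PERP (3.42% of all windows). The ATF4-type motif TGATGNAA, also on both strands, was in a window of PLK3 (3.62% of all windows).

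Within the metabolic arm the 3 sestrins differed in their response. Sestrins are stress proteins that bind the GATOR complex and restrain mTORC1; SESN2 is also a leucine sensor. SESN1 read 8.45, 8.004, 8.47 and 7.71 in shCD39 arrays 1 to 4, against 6.82, 6.44, 6.86 and 7.26 in shCTRL arrays 1 to 4. The groups were separate, the nearest values being shCD39 array 4 and shCTRL array 4. SESN1 averaged 8.16 ± 0.37 in shCD39 and 6.84 ± 0.33 in shCTRL, a 2.48-fold increase (log2 1.31, SE 0.20, limma adjusted p = 0.0432). SESN2 read 6.65, 5.91, 6.54 and 6.73 in shCD39 arrays 1 to 4, against 7.83, 7.79, 7.71 and 6.78 in shCTRL arrays 1 to 4. All shCD39 values were below all controls, though shCTRL array 4 lay within 0.1 of the highest shCD39 array. Its log2 fold change of -1.07 (SE 0.24, 95% interval -1.60 to -0.54) was not past the threshold with all arrays (limma adjusted p = 0.0939). It was past it without shCD39 array 4 (log2 fold change -1.16, adjusted p = 0.044) and without shCTRL array 4 (-1.32, adjusted p = 0.0215). SESN3 was dim, at 2.64 ± 0.14 in shCD39 and 2.35 ± 0.11 in shCTRL, with groups that did not overlap but no call (0.29 on the log2 scale, SE 0.11, limma adjusted p = 0.254).

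The responses of the sestrins were compared directly by taking the log2 difference between paired genes on each array. SESN1 minus SESN2 was 1.80, 2.09, 1.93 and 0.98 in shCD39 arrays 1 to 4, against -1.02, -1.34, -0.85 and 0.48 in shCTRL arrays 1 to 4. No shCD39 array overlapped a control, and the change of this difference was 2.39 on the log2 scale (2-sided exact permutation p = 0.0286, the smallest that 4 against 4 arrays can give; 0.0381 after Benjamini-Hochberg adjustment over the 4 pairs computed). SESN1 rose by 1.02 more than SESN3, and SESN2 had a change of -1.36 relative to SESN3, both with the same exact permutation p. For SESN1 against SESN2 and for SESN2 against SESN3 that p was fixed beforehand. SESN1 and SESN3 lay above all controls and SESN2 below all of them, so these differences had to separate. Their p-values add nothing to the separation already seen in the single genes. Since SESN3 was dim in both groups, the differences from it may be partly a matter of signal level, which was not tested. Leaving out any 1 shCD39 array took the exact p of SESN1 against SESN2 and of SESN2 against SESN3 to 0.0571, which misses 0.05, while leaving out 1 shCTRL array did not. With both arrays numbered 4 left out, 3 against 3 arrays cannot go below 0.1, which is what all 3 sestrin pairs gave.

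**Figure D2:**
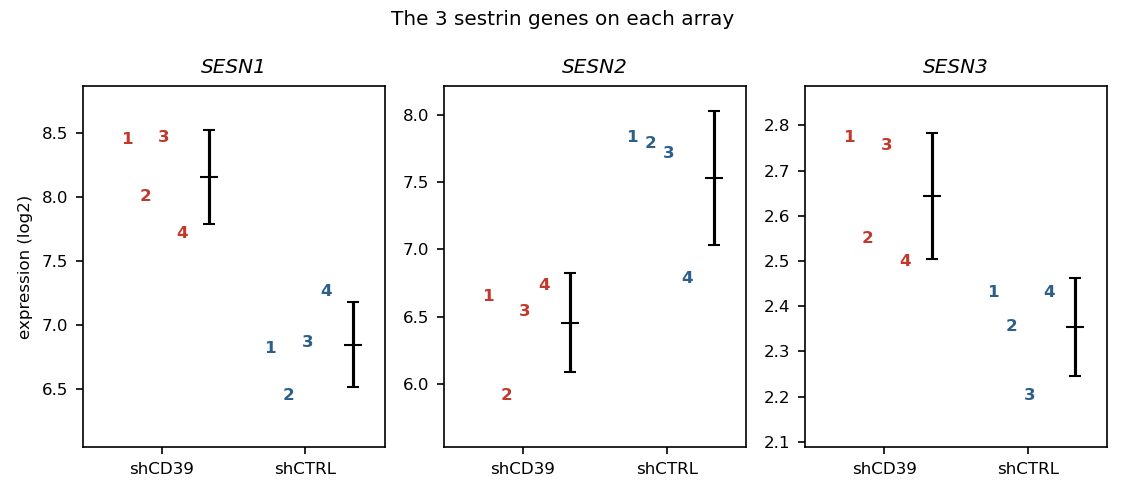
Log2 expression of SESN1, SESN2 and SESN3 on each array (digits are array numbers; bars are mean ± SD of 4 arrays; each panel has its own axis). SESN1 and SESN3 lie higher and SESN2 lower in shCD39, and shCTRL array 4 is the control nearest to shCD39 for SESN1 and SESN2.

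The promoter windows of SESN1 and SESN2 are shown because the responses of these paralogues differed. SESN1 has 3 windows, and the decamer GGACAAGTCT lies 49 bases before the start in the one at chr6:109008939-109009238 (minus strand). SESN2 has 1 window, chr1:28259268-28259567 (plus strand), without an exact decamer. Both are from RefSeq, GRCh38.p14, and decamers are in capitals.
SESN1: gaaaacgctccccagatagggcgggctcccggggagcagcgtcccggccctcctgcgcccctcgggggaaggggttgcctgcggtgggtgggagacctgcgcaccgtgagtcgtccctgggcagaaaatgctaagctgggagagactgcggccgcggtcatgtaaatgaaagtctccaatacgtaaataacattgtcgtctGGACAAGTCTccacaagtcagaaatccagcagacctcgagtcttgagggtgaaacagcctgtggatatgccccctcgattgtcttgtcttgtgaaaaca
SESN2: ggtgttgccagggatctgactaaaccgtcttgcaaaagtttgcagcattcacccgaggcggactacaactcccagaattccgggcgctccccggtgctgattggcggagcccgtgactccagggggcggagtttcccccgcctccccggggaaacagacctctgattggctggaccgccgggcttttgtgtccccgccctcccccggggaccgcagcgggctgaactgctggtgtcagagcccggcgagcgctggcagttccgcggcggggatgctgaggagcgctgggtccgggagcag
The missing match says only that these letters are not in this window. The probe set of SESN1 is not tied here to any of its 3 starts.

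The other metabolic targets were all higher on average by less than 1.5-fold, and none passed the threshold. TIGAR, a phosphatase that lowers glycolytic flux, read 6.65, 6.39, 6.75 and 6.01 in shCD39 arrays 1 to 4, against 6.05, 6.03, 5.91 and 5.87 in shCTRL arrays 1 to 4. Its shCD39 array 4 fell inside the control range (log2 fold change 0.48, SE 0.15, limma adjusted p = 0.18). Without that array the log2 fold change was 0.63 and passed (adjusted p = 0.0247). TP53I3, an NADPH-dependent quinone reductase, read 4.59, 4.82, 4.99 and 4.71 in shCD39, against 4.40, 4.49, 4.44 and 4.00 in shCTRL. CMBL, a cytosolic hydrolase, read 5.31, 5.08, 5.32 and 5.09 in shCD39, against 4.77, 4.77, 4.69 and 4.94 in shCTRL. Neither pair of groups overlapped, with log2 fold changes of 0.45 (SE 0.14, limma adjusted p = 0.168) for TP53I3 and 0.40 (SE 0.11, limma adjusted p = 0.133) for CMBL. FDXR, the ferredoxin reductase of this arm, was not measured.

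**Figure D3:**
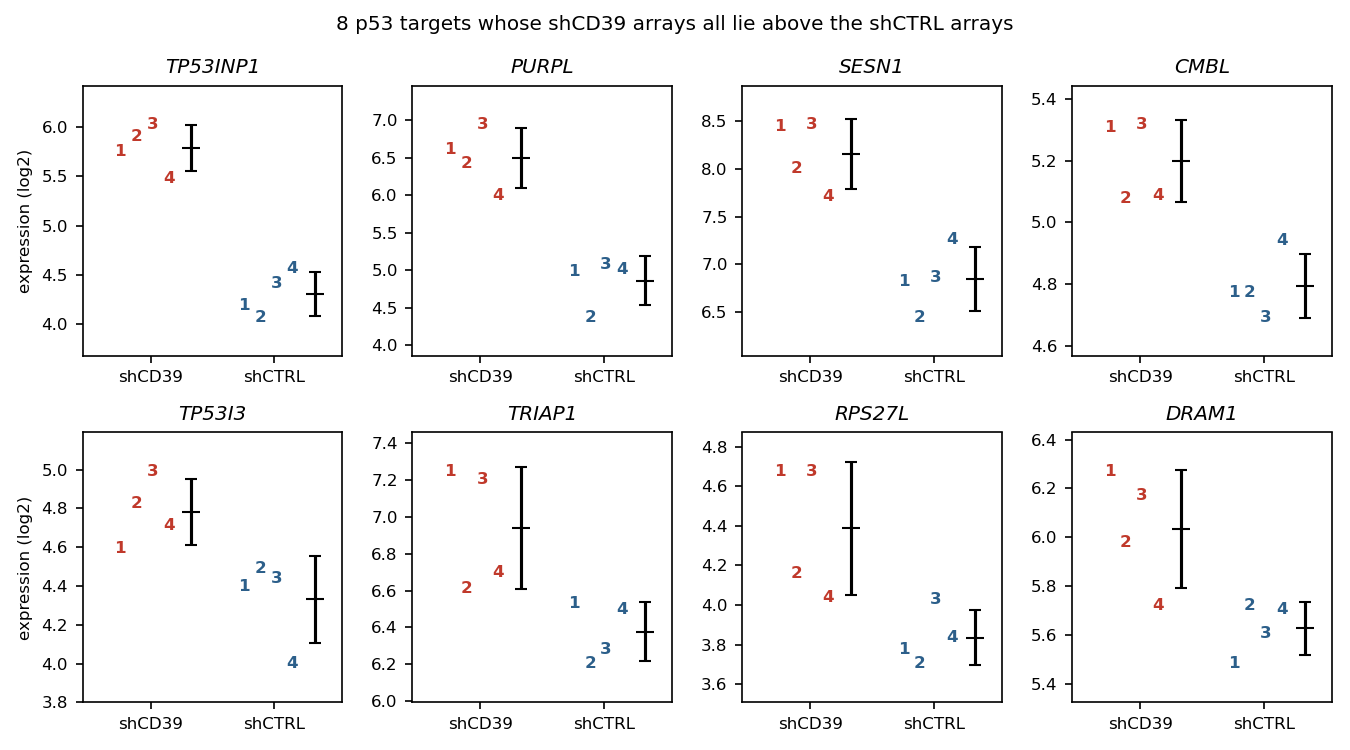
Log2 expression on each array of 8 p53 targets whose shCD39 arrays all lie above the shCTRL arrays (digits are array numbers; bars are mean ± SD of 4 arrays; each panel has its own axis). The gap is wide for TP53INP1, PURPL and SESN1 and narrow for the others, down to DRAM1, where shCD39 array 4 and shCTRL array 2 both read 5.72.

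In the arrest arm, 3 of 5 genes were measured and 0 passed by limma, where 0.047% of all genes passed higher. At an unadjusted p under 0.05, 1 was higher, PLK2, against 6.54% of all genes. With so few genes, 0 calls do not show that an arm stayed unchanged. PLK2, a polo-like kinase of centriole duplication and stress checkpoints, read 4.61, 4.05, 4.26 and 3.60 in shCD39 arrays 1 to 4, against 3.59, 2.96, 3.41 and 3.75 in shCTRL arrays 1 to 4. The groups overlapped at array 4 of each, and the change was 0.70 on the log2 scale (SE 0.22, limma adjusted p = 0.17). Without shCD39 array 4 the change was 0.88 and passed (adjusted p = 0.0423). PLK2 was dim in shCTRL, at a mean of 3.43. Its relative PLK3 averaged 5.18 ± 0.19 in shCD39 and 5.18 ± 0.09 in shCTRL, with a 95% interval of the log2 fold change from -0.26 to 0.25. PLK2 minus PLK3 differed between the groups by 0.71 on the log2 scale, which did not pass (exact permutation p = 0.0857). Without shCD39 array 4 the difference was 0.87 (exact permutation p = 0.0286, not adjusted over the pairs). The cyclin gene CCNG1 had the most divided shCD39 arrays: 7.58, 8.61, 7.36 and 8.69 in shCD39 arrays 1 to 4, against 8.28, 8.23, 8.21 and 8.21 in shCTRL arrays 1 to 4. Its controls agreed within an SD of 0.04, while shCD39 arrays 2 and 4 lay above them and arrays 1 and 3 below (SD 0.69; log2 fold change -0.17, SE 0.26, limma adjusted p = 0.821). CDKN1A, the cyclin-dependent kinase inhibitor p21, and BTG2 were not measured.

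Of the 8 genes of death, autophagy and mitochondrial quality, 6 were measured and 0 passed by limma, where 0.047% of all genes passed higher. At an unadjusted p under 0.05, 2 were higher, against 6.54% of all genes. The higher ones were TRIAP1, a small mitochondrial inhibitor of apoptosis, and DRAM1, a lysosomal inducer of autophagy. TRIAP1 read 7.25, 6.61, 7.20 and 6.70 in shCD39 arrays 1 to 4, against 6.53, 6.20, 6.28 and 6.50 in shCTRL arrays 1 to 4 (log2 fold change 0.56, SE 0.16, limma adjusted p = 0.149). DRAM1 read 6.27, 5.98, 6.17 and 5.72 in shCD39, against 5.48, 5.72, 5.61 and 5.70 in shCTRL (0.41, SE 0.13, limma adjusted p = 0.188; without shCD39 array 4, 0.51 and adjusted p = 0.049). Both sets of groups were just separate. BBC3, which encodes the pro-apoptotic protein PUMA, read 5.22, 5.51, 5.77 and 4.67 in shCD39 and 5.00, 5.09, 5.59 and 5.30 in shCTRL, so that shCD39 array 4 was the lowest of all 8. Its log2 fold change was 0.05 with a 95% interval from -0.42 to 0.51. AEN, a nuclease that enhances apoptosis, had 0.26 (SE 0.15), and EDA2R, a receptor of the TNF receptor superfamily, 0.08 (SE 0.11). With 1 array left out, AEN ranged from 0.13 to 0.39 and EDA2R from 0.04 to 0.14. SPATA18, a regulator of mitochondrial quality, had -0.10 (SE 0.11). For these 4 genes the groups overlapped. EDA2R (2.84 in shCD39, 2.76 in shCTRL) and SPATA18 (2.67 and 2.77) were dim, below the array medians of 3.13 to 3.17. Changes near 0 at such levels do not show that these genes stayed unchanged. AEN carries the decamer GGGCTTGCCC 34 bases before its start, at chr15:88621306-88621315 (GRCh38.p14).

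RPS27L, a p53-inducible paralogue of ribosomal protein S27, was the measured gene of RNA binding and translation. RPS27L read 4.68, 4.16, 4.68 and 4.04 in shCD39 arrays 1 to 4, against 3.78, 3.70, 4.03 and 3.84 in shCTRL arrays 1 to 4. The groups were separate by a margin smaller than the SD of either (log2 fold change 0.55, SE 0.16, limma adjusted p = 0.153; without shCD39 array 4, 0.67 and adjusted p = 0.0444). Its window holds the decamer AGACAAGCCC at chr15:63157527-63157536 (GRCh38.p14), 59 bases before the start. Probes of a gene this close to RPS27 may share signal with it, which was not tested.

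Secreted and membrane proteins split into 2 genes with higher means and 2 near 0. Limma called 0 of the 4, where 0.047% of all genes passed higher. At an unadjusted p under 0.05, 2 were higher, against 6.54% of all genes. PTCHD4, a patched-domain membrane protein, read 4.60, 3.52, 4.31 and 3.12 in shCD39 arrays 1 to 4, against 3.26, 3.48, 3.26 and 2.77 in shCTRL arrays 1 to 4. KITLG, the ligand of the receptor KIT, read 3.71, 2.85, 3.82 and 2.77 in shCD39, against 2.66, 2.84, 2.27 and 2.71 in shCTRL. In both genes arrays 1 and 3 stood high while arrays 2 and 4 were at or near the controls, with log2 fold changes of 0.69 (SE 0.28, limma adjusted p = 0.285) for PTCHD4 and 0.67 (SE 0.24, limma adjusted p = 0.219) for KITLG. GDF15, a secreted stress cytokine, read 4.92, 4.53, 5.14 and 4.55 in shCD39 and 5.16, 4.81, 5.56 and 3.98 in shCTRL. Its log2 fold change of -0.09 (SE 0.28) depended on single controls: it was -0.39 without shCTRL array 4 and 0.14 without shCTRL array 3, so its direction is not settled. SUSD6, a sushi-domain membrane protein, had -0.04 (SE 0.16) and was dim, at 3.23 in shCD39 and 3.27 in shCTRL. KITLG (3.29 in shCD39, 2.62 in shCTRL) and PTCHD4 (3.89 and 3.19) were dim as well, with control means near or below the array medians. The size of their changes is therefore uncertain. The promoter window of PTCHD4 at chr6:48111148-48111447 (RefSeq, GRCh38.p14, minus strand; 1 of its 3 windows) is shown as the other measured gene with adjoining decamers, in capitals.
PTCHD4: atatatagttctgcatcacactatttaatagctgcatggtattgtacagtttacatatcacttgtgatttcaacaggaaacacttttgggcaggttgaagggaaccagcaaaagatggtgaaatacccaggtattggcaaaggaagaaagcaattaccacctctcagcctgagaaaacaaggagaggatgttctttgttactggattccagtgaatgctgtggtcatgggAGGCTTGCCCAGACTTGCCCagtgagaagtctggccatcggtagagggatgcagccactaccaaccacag
Its pair ends at the base before the start.

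TRIM22, an interferon- and p53-inducible antiviral ubiquitin ligase, was the measured gene among the remaining targets. TRIM22 read 7.90, 7.02, 8.08 and 6.75 in shCD39 arrays 1 to 4, against 6.55, 6.46, 6.71 and 6.98 in shCTRL arrays 1 to 4. Arrays 1 and 3 were again the highest, and array 4 lay inside the control range (log2 fold change 0.76, SE 0.26, limma adjusted p = 0.212).

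Across the 24 genes, the 4 shCD39 arrays did not contribute alike. The number of members above every control was 16, 16, 18 and 10 in shCD39 arrays 1 to 4. The share of all genes above every control was not counted per array, so these numbers lack a background. Array 4 was the lowest shCD39 array in 14 of the 17 members with a higher mean. The median deviation of the 24 from their control means was 0.47, 0.27, 0.60 and 0.08 in shCD39 arrays 1 to 4, while over all genes the medians of these arrays were within 0.01 of 0. Without array 4 the groups did not overlap in 15 higher members and 1 lower, against 7.46% and 9.49% of all genes. In that setting limma called 7 members higher, adding TIGAR, PLK2, DRAM1 and RPS27L, and SESN2 lower; over all genes 0.746% passed higher and 2.1% lower.

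**Figure D4:**
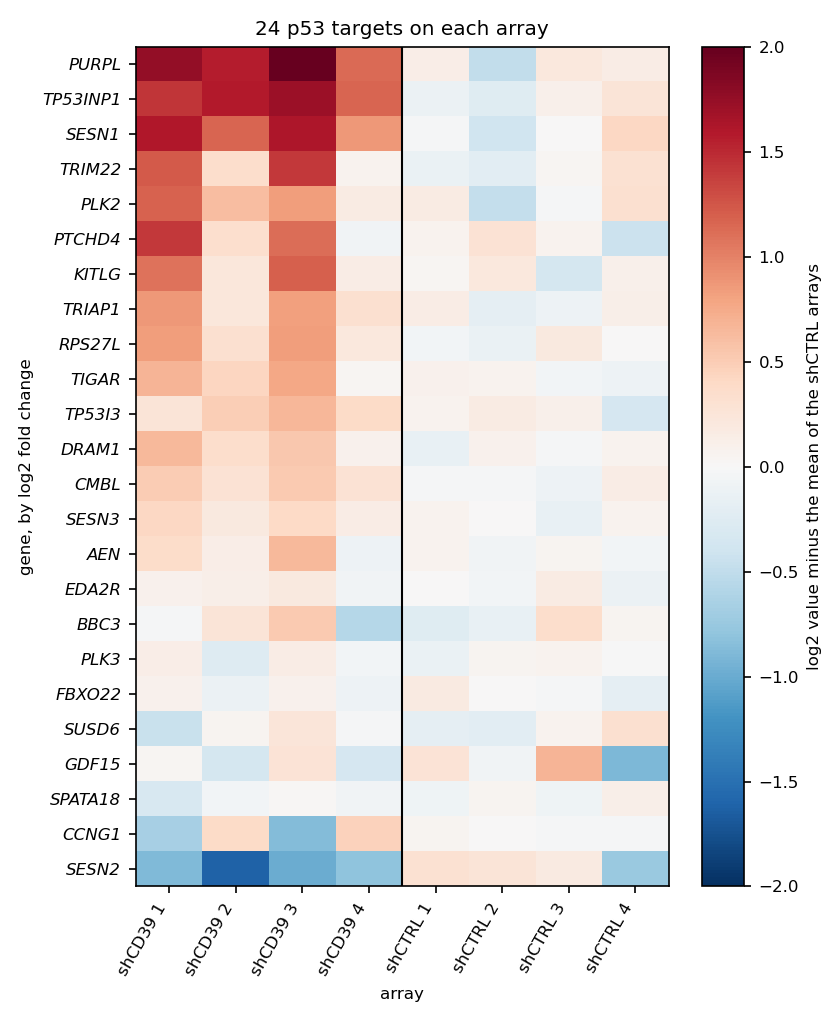
Log2 value of each of the 24 p53 targets on each array minus its mean over the shCTRL arrays, genes ordered by log2 fold change. PURPL, TP53INP1 and SESN1 are higher on all 4 shCD39 arrays, TRIM22, PTCHD4 and KITLG mainly on arrays 1 and 3, and CCNG1 goes opposite ways on shCD39 arrays 1 and 3 and arrays 2 and 4.

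The 3 calls depended on which arrays were in the fit. TP53INP1 kept its call in all fits that left out 1 array except the one without shCTRL array 1 (limma adjusted p = 0.0585). PURPL had adjusted p-values from 0.0041 to 0.078 over those fits, and missed the threshold without shCD39 array 1 or 2 or shCTRL array 1 or 3. SESN1 ranged from 0.0066 to 0.193 and passed only without shCD39 array 4 or without shCTRL array 4. Their log2 fold changes moved little: 1.40 to 1.58 for TP53INP1, 1.47 to 1.80 for PURPL and 1.18 to 1.46 for SESN1. Without shCTRL array 1, limma called 0 members and 0 of all genes (0%), with 15 members and 1574 genes at an unadjusted p under 0.05.

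Counts of members called in other settings stand beside the share of all genes. Without shCTRL array 4, 3 members were called higher (0.0941% of all genes) and SESN2 lower (0.228%). Without both arrays numbered 4, TP53INP1, PURPL, SESN1 and PLK2 were called higher (0.618%) and SESN2 lower (1.85%). With array weights the same 3 as with all arrays were called higher (0.249%) and SESN2 lower (0.585%). Quantile normalization left TP53INP1 and PURPL (0.0336% of all genes higher, 0% lower, with 958 genes lower at an unadjusted p under 0.05), as did the replicate number as a block (0.0403% higher, 0% lower, with 1210 lower at an unadjusted p under 0.05).

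**Figure D5:**
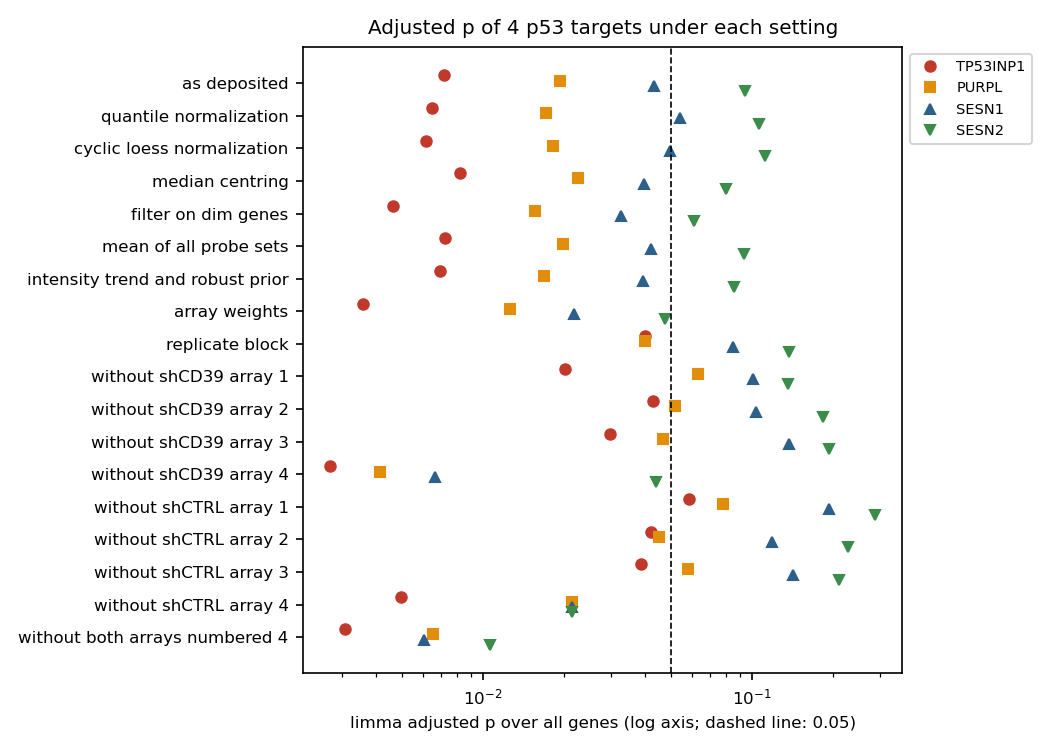
Limma adjusted p (log axis) of TP53INP1, PURPL, SESN1 and SESN2 as deposited and under 17 alternative settings, with the threshold of 0.05 dashed. SESN2 crosses it in the fits without shCD39 array 4, without shCTRL array 4, without both, and with array weights.

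Other genes of the pathway were read from a list of 51 further p53 targets, of which 30 were measured. RRM2B, which encodes a p53-induced subunit of the enzyme that makes deoxynucleotides, rose and was the single one to pass. RRM2B read 6.81, 6.90, 6.99 and 6.70 in shCD39 arrays 1 to 4, against 5.92, 5.92, 6.01 and 5.78 in shCTRL arrays 1 to 4. Its arrays agreed closely within each group, array 4 included (1.92-fold, log2 0.94, SE 0.11, limma adjusted p = 0.00993; 0.0656 without shCTRL array 1). Of all genes 0.047% passed higher. The median of the 30 was 0.10, with 19 higher and 11 lower means. At an unadjusted p under 0.05 by limma, 8 were higher and 2 lower, against 6.54% and 8.13% of all genes. The groups did not overlap in 4 that were higher and 2 that were lower, against 3.61% and 4.23% of all genes.

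Regulators upstream of p53 had mostly lower means. Of 27, 17 were measured, 12 lower and 5 higher, with a median of -0.13 and 0 calls by limma. At an unadjusted p under 0.05, 4 of the 17 were lower, against 8.13% of all genes. MDM4, an inhibitor of p53, averaged 8.16 ± 0.03 in shCD39 and 8.40 ± 0.36 in shCTRL (a change of -0.24, SE 0.16, limma adjusted p = 0.53). The checkpoint kinases CHEK1 and CHEK2, which phosphorylate p53 after DNA damage, had -0.87 (SE 0.21, limma adjusted p = 0.109) and -0.56 (SE 0.15, limma adjusted p = 0.126). Among lncRNAs linked to p53, 3 of 12 were measured: LINC-PINT had -0.75 (SE 0.19, limma adjusted p = 0.119), MEG3 0.14 and GAS5 -0.03, so PURPL was the lncRNA of either list that rose. Downstream of the sestrins, 18 measured genes of mTORC1 and AMPK control had a median of 0.04 and 0 calls. At an unadjusted p under 0.05 by limma, 3 were higher and 1 was lower, against 6.54% and 8.13% of all genes. RRAGB, a Rag GTPase, had 0.57 and NPRL2, a GATOR subunit, -0.37.

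Genes with other inputs differed between the same arrays. ATF4 targets, with which SESN2 and GDF15 share an input, had lower means in all 12 measured genes, with a median of -1.18. Limma called 2 of them lower, against 0.047% of all genes: STC2 (log2 fold change -1.79) and ATF3 (-0.75). Both calls were lost after quantile normalization, with the replicate block and in 6 of the 8 fits that left out 1 array, all but those without an array numbered 4 (limma adjusted p up to 0.193 for STC2 and 0.142 for ATF3); cyclic loess normalization also lost STC2 (0.0502). Their mean deviation from the controls was -1.58, -1.08, -1.70 and -0.64 in shCD39 arrays 1 to 4, and -0.66 in shCTRL array 4, the control in which SESN2 and GDF15 were also lowest. The other controls lay between 0.20 and 0.26. FOXO targets had 12 of 16 higher means, a median of 0.25 and 0 calls by limma, with PINK1 at 0.60 and KLF2 at 0.58. At an unadjusted p under 0.05, 5 of the 16 were higher, against 6.54% of all genes. Among genes of E2F and DNA replication, many of which fall when p53 is active, CDT1 had -0.99 and PLK1 -0.92. Lower means were found in 27 of 27 of these genes, with a median of -0.58 and 0 calls by limma. At an unadjusted p under 0.05, 25 of the 27 were lower, against 8.13% of all genes. Their mean deviation was -0.51, -0.80, -0.86 and -0.17 in shCD39 arrays 1 to 4, against -0.22 to 0.16 in the controls, so that array 4 lay inside the control range here as well. The part of these inputs in the values of the p53 targets was not tested.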

How the data were processed

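The deposited values are log2 expression per probe set on 8 Affymetrix arrays. RMA from the oligo package produced them, per the submitters' processing notes. RMA corrects background, equalises array distributions and summarises probes, so changes are relative to the bulk of probe sets. Per the labels' protocols, biotinylated cRNA was made with the GeneChip WT PLUS kit; the array model is not given in the sources used here, nor the build. Of 53617 probe sets, 16098 had a symbol in the platform annotation (each 1 symbol, updated through Entrez IDs with RefSeq, GRCh38.p14) and 37519 are unnamed here. Array medians were 3.13 to 3.17, and no 2 arrays held identical values. Arrays have no read depth; their number limits precision.

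From these values shCD39 minus shCTRL was fitted with limma 3.58.1 (lmFit, eBayes; R 4.3.3) over 14884 genes, without a filter, adjusted by Benjamini-Hochberg over all of them, at a threshold of 0.05. Single values were compared by 2-sided exact permutation over arrays. The members and lists, and the roles, were chosen with earlier results of these data known. The rule for named genes takes every measured member, ENTPD1, MDM4, RRM2B, 1 gene that is not reported here and, per list, up to 4 called genes or else the 2 with the largest change; CD14, CSF1R, LYZ, MPO, NKG7, PAX5 and GAS5 were added after their values were seen. In simulated data of this comparison with 14884 genes, 40% of changes of 0.5 (log2), 88% of 1, 100% of 1.5 and 98% of 2 were recovered. The simulation changed 50 genes by each amount and gave every gene independent noise, without the array differences seen here. Its rates need not hold for the real fit, where 14 genes passed and SESN2 at -1.07 did not. Same-numbered arrays did not deviate together (r from -0.04 to 0.06), so the numbers were not used as pairs. Over all probe sets, though, shCD39 array 4 and shCTRL array 4 were each closest to the other (r = 0.986). What they share was not tested. Alternatives were 3 normalizations, a dim-gene filter, all probe sets averaged, a variance trend, array weights, a replicate block and leaving arrays out. Promoter windows came from the RefSeq table. Figures used matplotlib 3.10.9 in Python 3.11.15.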

Additional observations from a re-analysis of the deposited data

Results flagged for a closer look

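Of 50 groups of 4 arrays examined (24 members and ENTPD1 in shCD39 and in shCTRL), 2 held an array set apart from the other 3 by more than Dixon's 95% limit, where chance flags about 5%. SESN2 read 6.78 in shCTRL array 4, below the other controls, with a gap of 0.886 of the range. PURPL read 4.37 in shCTRL array 2, below the other controls, with a gap of 0.881 of the range.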

How the results depend on the processing

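Direction held for TP53INP1, PURPL, SESN1 and SESN2 under all 17 alternatives, and the median of the members stayed between 0.35 and 0.46. Against 3 members called with all arrays, 5 were called without both arrays numbered 4, and 0 to 8 when 1 array was left out (8 without shCD39 array 4, 0 without shCTRL array 1). Over all genes 14 were called as deposited, 5 after quantile normalization, 64 with the filter on dim genes, 22 with the trend, 124 with array weights, 368 without both arrays numbered 4, and 0 to 423 when 1 array was left out. With the replicate block 6 genes were called, with TP53INP1 and PURPL among them and SESN1 not (adjusted p = 0.0851); quantile normalization also lost SESN1 (0.0542). No pairing by number is stated in the labels, and a factor shared by the arrays numbered 4 was not tested. The filter tests fewer genes, and other causes were not tested. It kept 16 of the members and dropped SESN3, SPATA18, PLK2, PTCHD4, EDA2R, SUSD6, KITLG and RPS27L as dim. The self-test recovered 40% of changes of 0.5, so changes of that size can be missed. Larger ones also went uncalled in the real fit, such as SESN2 at -1.07.

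Leaving out 1 array gave 2.17 to 2.77 for SESN1 minus SESN2, -1.64 to -1.21 for SESN2 minus SESN3 and 0.53 to 0.87 for PLK2 minus PLK3. Without both arrays numbered 4 the sestrin pairs had 3.01 (SESN1 minus SESN2), 1.24 (SESN1 minus SESN3) and -1.78 (SESN2 minus SESN3). Signs changed for uncalled members near 0. PLK3 had 0.045 after quantile and 0.020 after cyclic loess normalization, FBXO22 0.064 and 0.063, and 0.047 with probe sets averaged. Without both arrays numbered 4, PLK3 had 0.0085 and SUSD6 0.059. With 1 array left out, PLK3 ranged from -0.057 to 0.078, FBXO22 from -0.068 to 0.053, SUSD6 from -0.14 to 0.091, BBC3 from -0.11 to 0.25, CCNG1 from -0.38 to 0.060 and GDF15 from -0.39 to 0.14.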
